A study of Mus musculus with 20 samples.

Results

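Cohesin peaks between genes that were called after CTCF was degraded and not in WT, away from MAZ, are described here. The regions are RAD21 ChIP-seq peaks of ΔCTCF cells that overlapped no RAD21 peak of WT and no MAZ peak of ΔCTCF, with the summit more than 1 kb from every transcript start and outside every gene of GENCODE vM21 basic (mouse build mm10). They number 3076 of the 17912 RAD21 peaks of ΔCTCF, or 17.2% (16.6 to 17.7), and 30.7% (29.8 to 31.6) of the 10019 RAD21 peaks that WT lacked, which are called relocalized below. Ranges in parentheses after a share are Wilson 95% intervals and reflect counting error within single libraries, nothing more. The members were chosen by the presence of a peak in 3 of the lists and by their place, so their absence from RAD21 WT and MAZ ΔCTCF is a description and not a result.

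The cells were E14 mouse embryonic stem cells (mESCs) grown in 2i and LIF, in which CTCF is fused to an auxin-inducible degron. WT cells were untreated and ΔCTCF cells received auxin, for 2 days per the titles. ΔMAZ and ΔCTCF/ΔMAZ were the untreated and auxin-treated cells of B2, which is 1 clone with Maz knocked out in the degron line. All groups, WT included, therefore carried the degron. Each of 3 antibodies (CTCF, MAZ and RAD21) had 1 peak list in each of 4 conditions, 136043 peaks in all, so differences could not be checked against replicates, and p-values were not calculated.

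Cohesin is a ring complex, with RAD21 as its closing subunit, that is loaded onto chromatin and extrudes loops of DNA. It halts at proteins bound to DNA, above all at CTCF, and these stalled rings are what a RAD21 peak mostly shows. MAZ is a zinc finger protein that binds G-rich DNA and has been described as a further barrier. In mESCs, many distal enhancers lie between genes and are bound by OCT4, SOX2, KLF4 and ESRRB, and cohesin and its loader are known to be found at such elements too.

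The sequences below show what lay around the summits. Each is 151 bases centred on the summit, read from build GRCm38 (mm10) on the plus strand, in lower case, with capitals for the letters of any of 16 motifs searched on both strands. The 5 members with the highest fold enrichment are shown to compare regions that lay at CTCF peaks with those that did not. Capitals mark the CTCF core in the regions nearest to Tmem233 and Man2b2, and CCAAT boxes in that nearest to Plpp4. The core near Tmem233 lies at -67 to -56 bases from the summit, outside the windows of 50 bp behind the motif shares below. All 5 were also called in ΔCTCF/ΔMAZ, as were 29.5% of all RAD21 peaks of ΔCTCF, and by fold enrichment in ΔCTCF no stronger member was called there.
Region nearest to Tmem233 (chr5:116116657-116116807): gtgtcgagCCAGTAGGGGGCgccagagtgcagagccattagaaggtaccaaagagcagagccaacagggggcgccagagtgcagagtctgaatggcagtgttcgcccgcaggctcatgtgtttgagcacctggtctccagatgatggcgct
Region upstream of Tbl1x (chrX:77509248-77509398): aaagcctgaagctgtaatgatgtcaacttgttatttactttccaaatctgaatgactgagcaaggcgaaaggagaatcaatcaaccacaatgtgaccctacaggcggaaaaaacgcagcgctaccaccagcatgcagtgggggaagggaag
Region nearest to Plpp4 (chr7:129421419-129421569): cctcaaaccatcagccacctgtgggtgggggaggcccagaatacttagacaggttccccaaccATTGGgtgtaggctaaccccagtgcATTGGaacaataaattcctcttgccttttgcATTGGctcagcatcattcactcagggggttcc
Region upstream of Man2b2 (chr5:36836059-36836209): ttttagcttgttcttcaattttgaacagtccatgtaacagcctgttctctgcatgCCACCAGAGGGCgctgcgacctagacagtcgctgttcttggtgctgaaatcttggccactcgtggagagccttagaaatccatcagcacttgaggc
Region nearest to Rasl11a (chr5:146891266-146891416): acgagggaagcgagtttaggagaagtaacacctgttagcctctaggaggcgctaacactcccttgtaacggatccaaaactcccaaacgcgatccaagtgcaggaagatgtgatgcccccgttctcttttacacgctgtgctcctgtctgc

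The members nearest to the start of a pluripotency regulator are shown for their place beside genes that define mESCs. Capitals mark TEAD letters upstream of Tfcp2l1, the octamer of OCT4 upstream of Dppa3 and GATA letters upstream of Nodal. These are matches of letters, not binding sites. The octamer lies at -59 to -52 bases from the summit, outside the windows of 50 bp behind the motif shares.
Region upstream of Tfcp2l1 (chr1:118626575-118626725): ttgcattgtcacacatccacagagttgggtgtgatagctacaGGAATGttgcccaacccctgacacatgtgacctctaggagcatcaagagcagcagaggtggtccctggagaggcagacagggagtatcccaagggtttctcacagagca
Region upstream of Dppa3 (chr6:122624665-122624815): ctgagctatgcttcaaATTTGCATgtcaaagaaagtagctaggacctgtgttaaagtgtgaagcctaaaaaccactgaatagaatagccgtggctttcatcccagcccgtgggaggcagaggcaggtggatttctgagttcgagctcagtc
Region upstream of Nodal (chr10:61416008-61416158): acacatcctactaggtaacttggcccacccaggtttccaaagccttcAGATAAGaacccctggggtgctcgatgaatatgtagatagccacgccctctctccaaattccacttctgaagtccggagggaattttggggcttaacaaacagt

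A further 3 members, chosen after their values were seen, are shown because the accounts of the Mir290a cluster, Klf2 and Dppa5a below turn on them. Capitals mark a CCAAT box in the Mir290a region and a CCAAT box and a run of A in the Klf2 region. The box of the Mir290a region, at -54 to -50 bases from the summit, lies partly outside the windows of 50 bp.
Strongest region of the Mir290a cluster (chr7:3193256-3193406): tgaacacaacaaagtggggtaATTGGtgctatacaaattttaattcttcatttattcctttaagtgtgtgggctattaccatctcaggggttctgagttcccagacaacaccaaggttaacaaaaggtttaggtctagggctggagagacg
Strongest region at Klf2 (chr8:72334397-72334547): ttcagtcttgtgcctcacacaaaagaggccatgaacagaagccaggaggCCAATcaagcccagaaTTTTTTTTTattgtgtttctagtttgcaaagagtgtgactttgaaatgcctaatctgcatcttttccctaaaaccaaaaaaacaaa
Region at Dppa5a (chr9:78364834-78364984): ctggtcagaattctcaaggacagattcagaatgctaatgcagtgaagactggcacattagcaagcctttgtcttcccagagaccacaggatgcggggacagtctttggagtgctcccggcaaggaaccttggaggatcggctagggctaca

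The depth of the libraries bears on every statement about presence or absence. The RAD21 library of ΔCTCF was 2.18 times as deep as that of WT, 1.69 times as deep as that of ΔMAZ and 2.34 times as deep as that of ΔCTCF/ΔMAZ, by an index that divides the lowest background of each list by its smallest peak width. Had the members kept their ΔCTCF signal at WT depth, 65.2% of them would have reached the lowest −log10 p of the WT list, and 18.5% a stricter limit at its 5th percentile. These are mean chances over the members and name no single region, so absence of RAD21 in WT and lack of depth cannot be told apart, and "relocalized" is used for absence from the WT list, not for absence of RAD21. In the CTCF lists, 26394 peaks of WT stood against 2381 of ΔCTCF, and the MAZ lists held 6265 peaks in WT, 6759 in ΔCTCF and 33 in each of the knockout conditions.

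The members were weak peaks, but the rule kept peaks absent from a shallower WT list, so this was in part fixed by it. Fold enrichment, the read pileup at the summit over the local background with a pseudocount of 1 on each, had a median of 4.32 among members, with quartiles of 3.81 and 5.15 and a range of 2.28 to 13.5. With only the 6400 strongest peaks of each RAD21 list, a cut that itself raises medians, the median of members was 6.67. The median pileup was 19 reads over a background of 3.31. Relocalized peaks without MAZ inside genes had nearly the same median, 4.29, and the 221 relocalized peaks between genes that did overlap MAZ had 4.64. RAD21 peaks between genes that WT shared, called retained, stood at 7.15. Split over 5 strength groups of the whole ΔCTCF list, of 3389 to 3765 peaks each, 29.9% of members fell in the weakest and 2.503% in the strongest, which began at a fold enrichment of 7.45. Of the retained peaks between genes, 47.3% were in the strongest group.

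At the limits of the rule, the members closest to a transcript start lay 1003, 1011 and 1012 bp away, and the nearest peaks left out lay 991, 990 and 983 bp away. Outside genes, 766 relocalized peaks without MAZ were left out for lying within 1 kb of a start. The smallest gaps between a member and a RAD21 peak of WT were 0, 2 and 6 bp, and 110 members (3.58%) had such a peak within 500 bp. For MAZ peaks of ΔCTCF the smallest gaps were 3, 24 and 24 bp, and 48 members (1.56%) had one within 500 bp. On the other side, the retained peaks with the least overlap shared 22, 24 and 34 bp with WT.

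Of the 5 strongest members, 3 lay at CTCF peaks that were still called after auxin. The strongest (chr5:116116530-116117007), 33.5 kb upstream of Tmem233, had a RAD21 fold enrichment of 13.5 (ΔCTCF), 14.9 (ΔMAZ) and 14.3 (ΔCTCF/ΔMAZ). CTCF at this region stood at 41.4 in untreated and 16.3 in treated degron cells, and at 35.9 and 11.8 in the knockout clone. It thus had a strong CTCF peak in WT, but the nearest RAD21 peak of WT was 6.34 kb away. The region 5.48 kb upstream of Man2b2 (chr5:36835938-36836351), which encodes a lysosomal mannosidase, had RAD21 at 10.9 (ΔCTCF), 9.57 (ΔMAZ) and 12.3 (ΔCTCF/ΔMAZ). CTCF was called there in all 4 lists, at 24.4 (WT), 14.2 (ΔCTCF), 32.1 (ΔMAZ) and 8.02 (ΔCTCF/ΔMAZ). The region 46.3 kb downstream of the start of Rasl11a (chr5:146891169-146891609), a small GTPase gene, had RAD21 at 10.7, 5.79 and 6.87 in the same order, and CTCF at 21.3, 12.6, 29.08 and 9.42. Fold enrichments of different libraries are not on a common scale and are set side by side only to show where a peak was called.

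The other strong members had no CTCF peak in any list. The region 1.69 kb upstream of Tbl1x (chrX:77509074-77509646), a subunit gene of the NCoR corepressor, had RAD21 at 11.9 (ΔCTCF), 9.65 (ΔMAZ) and 6.87 (ΔCTCF/ΔMAZ). A lost RAD21 site lay 1.25 kb away. A region in a wide gap near Plpp4 (chr7:129420679-129421928), a lipid phosphatase gene whose start was 164.4 kb away, stood at 11.0, 5.77 and 6.87. The sixth strongest, 170.6 kb from the start of Car2 (carbonic anhydrase), was in no other list of the 12, at 10.2 in ΔCTCF. The remaining 4, near Slc9a9, Pmp22, Rfx3 and Akap7, ranged from 9.59 to 10.005, and all but the one near Rfx3 were called in ΔCTCF/ΔMAZ. In all, 8 of the 10 strongest members were called in ΔCTCF/ΔMAZ, 6 in ΔMAZ and 3 at CTCF peaks of WT, where the shares over all RAD21 peaks of ΔCTCF were 29.5%, 47.4% and 41.1%.

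To ask what became of these regions once MAZ was missing as well, members were compared with the RAD21 list of ΔCTCF/ΔMAZ. Of the 3076 members, 268 overlapped a peak there, or 8.71% (7.77 to 9.76), where 29.5% of all RAD21 peaks of ΔCTCF did. The share grew with strength, from 2.83% (1.94 to 4.11) in the weakest group through 5.82%, 9.08% and 16.3% to 48.1% (37.3 to 59.04) in the strongest, which held 77 members. Members that were called again had a median fold enrichment of 5.24 in ΔCTCF, and those that were not had 4.29. In ΔCTCF/ΔMAZ the partner peaks of the 268 members had a median fold enrichment of 5.27, and 15.3% of them were above that list's own median of 6.52. With only the 6400 strongest peaks of each RAD21 list the share called was 40.5% of 1222 members, which are in part other regions, and with a reciprocal overlap of 50% on the full lists it was 5.41%.

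**Figure D1:**
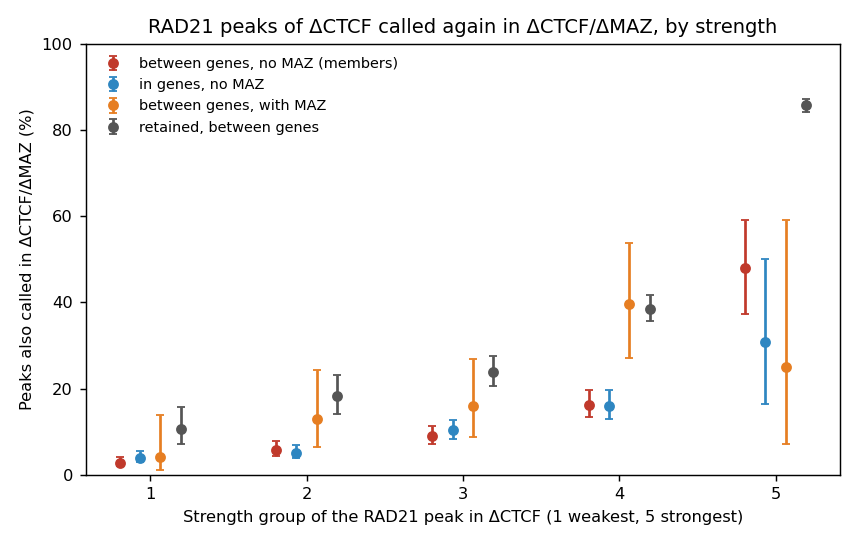
Share of RAD21 peaks of ΔCTCF that overlap a peak of ΔCTCF/ΔMAZ (vertical axis, percent) in 5 strength groups of the ΔCTCF list (horizontal axis), for 4 classes of peak. Points are shares and bars are Wilson 95% intervals. Members run from 2.83% to 48.1%, with intervals that overlap those of MAZ-unbound peaks inside genes in each group, and retained peaks between genes run from 10.7% to 85.8%.

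Of the MAZ-unbound relocalized peaks inside genes, 7.90% (6.98 to 8.93) were called in ΔCTCF/ΔMAZ, a share whose interval overlapped that of members. Within strength groups the Mantel-Haenszel odds ratio of members against them was 0.97 (95% interval 0.80 to 1.17), so a difference in either direction was not shown at this number of peaks. Pooled over strength groups, members had lower odds of being called than the other classes, although in the strongest group 2 of 8 MAZ-bound peaks between genes were called. Against MAZ-unbound relocalized peaks at promoters the odds ratio was 0.53 (0.44 to 0.64), against MAZ-bound relocalized peaks between genes 0.48 (0.32 to 0.70), and against retained peaks between genes 0.28 (0.24 to 0.34). The last was 0.16 with a reciprocal overlap of 50% and 0.60 with lists of equal length, and in the strongest group retained peaks reached a fold enrichment of 51.5 and members 13.5, so their strengths were not matched there. The raw shares of those classes were 12.3%, 18.1% and 55.9%. Loss of a call here cannot be told apart from the lower depth of ΔCTCF/ΔMAZ for weak peaks: by pileup, 56.5% of members would have reached the lowest −log10 p of that list at its depth, and 27.5% the stricter limit. Weighted by the chance at the lowest limit, 11.5% of members were called, and 10.1% of MAZ-unbound peaks inside genes and 15.2% at promoters. The share was 22.2% for MAZ-bound peaks between genes and 61.1% for retained ones. At the stricter limit the shares were 15.8% for members, 13.0% inside genes, 19.7% at promoters, 27.3% for MAZ-bound and 68.0% for retained peaks.

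The list of ΔMAZ, where CTCF was intact, held peaks at 311 members, or 10.1% (9.09 to 11.2), against 47.4% of all RAD21 peaks of ΔCTCF. With RAD21 lists of equal length it was 17.1%. These 311 members were thus RAD21 peaks in a cell population that had CTCF, although the WT list, from a shallower library, held no peak there. They were also called more often in ΔCTCF/ΔMAZ, at 26.4% (21.8 to 31.5) against 6.73% (5.85 to 7.72) of the other members, with an odds ratio of 3.47 (2.53 to 4.76) within strength groups. ΔMAZ and ΔCTCF/ΔMAZ were cells of the same clone. In all, 82 members were called in both, 186 in ΔCTCF/ΔMAZ without ΔMAZ, 229 in ΔMAZ without ΔCTCF/ΔMAZ, and 2579 members (83.8%) in neither. Absence from WT was set by the rule, and the ΔMAZ list held 95.8% of retained peaks between genes. A low share of members in ΔMAZ was thus in part fixed by the rule. The ΔCTCF library was the deepest of the RAD21 libraries.

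CTCF peaks of WT were rare at members. Only 92 overlapped one, 2.99% (2.45 to 3.65), where 41.1% of all RAD21 peaks of ΔCTCF and 91.0% of retained peaks between genes did. The rule removed RAD21 peaks of WT, most of which sit at CTCF, so a low share was in part fixed by it. With RAD21 lists of equal length, which drop weak peaks of WT, the share was 48.5% and the CTCF core stood at 13.3% of summits. Of these 92 members, 62 (67.4%) were called in ΔMAZ and 17 (18.5%, 11.9 to 27.6) in ΔCTCF/ΔMAZ, and 18 members overlapped a CTCF peak that remained in ΔCTCF, with a median fold enrichment of 6.61. MAZ peaks of WT overlapped 58 members, 1.89% (1.46 to 2.43), against 11.1% of all RAD21 peaks of ΔCTCF. The rule had removed peaks at MAZ of ΔCTCF, and 55.7% of the relocalized peaks removed between genes were at MAZ of WT too, so this share was also largely fixed by it. The knockout MAZ lists overlapped 0 members. The median distance from a member to the nearest MAZ peak of ΔCTCF was 96.3 kb, and 13.8% (12.6 to 15.05) had one within 10 kb.

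Members lay farther from protein-coding starts than retained or lost peaks between genes did. The nearest transcript start of any kind was a median of 15.0 kb away (quartiles 6.22 and 35.2 kb), but the nearest start of a protein-coding gene was 42.8 kb away (14.2 and 124.4 kb). For retained peaks between genes the latter was 24.4 kb and for lost ones 30.1 kb. Of the members, 29.97% (28.4 to 31.6) were over 100 kb from a protein-coding start, against 15.6% (14.4 to 16.7) of retained and 21.4% (20.3 to 22.6) of lost peaks between genes. The nearest start belonged to a protein-coding gene for 35.3% of members, to a processed pseudogene for 22.9% and to a lincRNA gene for 20.2%. Members were upstream of the nearest protein-coding start in 63.4% (61.7 to 65.1) of cases, and retained peaks between genes in 63.7%. A difference in fate by distance was not shown: 8.86% (6.87 to 11.4) of the members within 5 kb of any start were called in ΔCTCF/ΔMAZ, and 8.05% (4.67 to 13.5) of those over 100 kb away, with an odds ratio of 0.81 (0.41 to 1.61) for far against near.

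Sites that lost RAD21 upon CTCF degradation were not close to most members. The nearest lost site, a RAD21 peak of WT with no partner in ΔCTCF, was a median of 51.3 kb away (median's 95% interval 48.2 to 53.3 kb). Within 10 kb of a lost site lay 470 members, 15.3% (14.1 to 16.6), a share that was 24.1% with a reciprocal overlap of 50% and 4.01% with RAD21 lists of equal length. The same share was 17.7% (16.3 to 19.1) for MAZ-unbound peaks inside genes, 22.4% (21.2 to 23.8) for retained peaks between genes and 22.6% (17.6 to 28.6) for MAZ-bound ones. Retained RAD21 sites were a median of 54.4 kb from members and CTCF peaks of WT 26.5 kb. Members near a lost site were as strong as the rest, at a median of 4.29 against 4.37, and were called in ΔCTCF/ΔMAZ in 8.72% and 8.71% of cases.

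**Figure D2:**
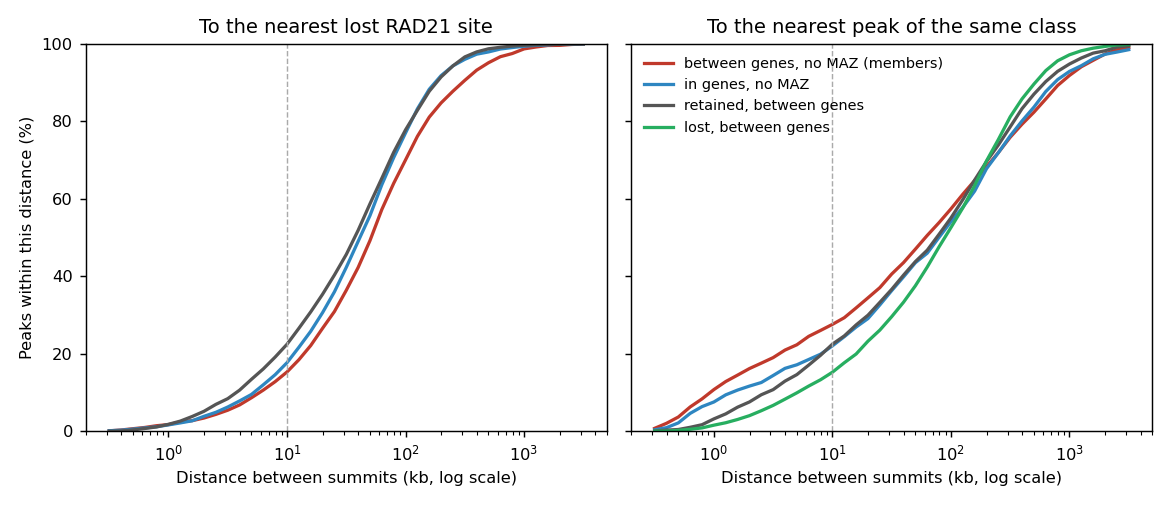
Cumulative share of peaks (vertical axis, percent) within a given distance (horizontal axis, kb, log scale) of the nearest lost RAD21 site (left) and of the nearest other peak of their own class (right). The dashed line marks 10 kb, where 15.3% of members lie within reach of a lost site and 27.6% within reach of another member.

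Members often lay near each other. Another member lay within 10 kb of 848 members, 27.6% (26.02 to 29.2), while the share was 22.0% (20.6 to 23.6) for MAZ-unbound peaks inside genes, 22.5% (21.2 to 23.8) among retained peaks between genes and 15.2% (14.3 to 16.2) among lost ones. These classes differ in number and in the length of genome they can occupy, which was not corrected for. Within 1 kb the shares were 10.7% for members, 7.52% for MAZ-unbound peaks inside genes, 3.16% for retained and 1.53% for lost peaks between genes. The excess of members over retained peaks was thus already present within 1 kb. Whether such close calls were separate sites was not tested. With only the 6400 strongest peaks of each RAD21 list, the share of members with such a neighbour was 12.4%. Joined by steps of up to 10 kb, the members made 365 clusters, of which 286 were pairs and 79 had 3 or more members, and 2228 members stood alone. Clusters of 3 or more took in 276 members (8.97%), against 178 (4.61%) of the retained peaks between genes. Members with a neighbour were called in ΔCTCF/ΔMAZ in 10.8% (8.93 to 13.1) of cases and lone ones in 7.90% (6.85 to 9.09), with an odds ratio of 1.33 (1.01 to 1.75) within strength groups. This interval takes members as independent, which close neighbours need not be. With its lower end at 1.01, the difference is not taken as shown.

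The largest cluster had 7 members over 23.0 kb on chromosome 7 (chr7:3193066-3216603), and it lay upstream of Mir290a. This is the start of the miR-290 cluster, which makes the most abundant microRNAs of mESCs and has a large enhancer region. From far to near, the members stood at fold enrichments of 8.34, 3.81, 7.38, 5.59, 4.29, 4.56 and 4.02, and the nearest was 2.27 kb from the start. The strongest of them, farthest from the start, was the only 1 called in ΔCTCF/ΔMAZ (5.95), and 0 were called in ΔMAZ. Retained RAD21 peaks lay among them, the closest with its summit 0.389 kb from that of a member, so the cluster lay among sites that WT already had. The region also held 3 MAZ peaks of ΔCTCF within 30 kb of the start, which overlapped RAD21 peaks that are no members, and the member at 7.38 overlapped a MAZ peak of WT (4.04).

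The next clusters were of 6 and 5 members. A run of 6 lay between Clstn3 and C1rl (chr6:124474421-124486149), a calsyntenin and a complement protease gene, at fold enrichments of 2.44 to 6.49, and 0 of them were called in ΔCTCF/ΔMAZ. Another 6 surrounded 1110038F14Rik (chr15:76940693-76961981), at 3.05 to 5.24, with 1 called. A group of 5 lay 29.9 kb or more from Zfp704 (chr3:9639960-9654917), a zinc finger gene, at 4.36 to 7.15, with 1 called in both Maz knockout lists. The fifth cluster, of 5 members between Rbfox2 and Apol7a (chr15:77338469-77356005), stood at 3.58 to 7.10 with 2 called. Together the 5 clusters held 29 members, of which 5 were called in ΔCTCF/ΔMAZ, 2 in ΔMAZ, and 0 lay at a CTCF peak of WT, where the shares over all members were 8.71%, 10.1% and 2.99%. Numbers this small do not set the clusters apart.

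**Figure D3:**
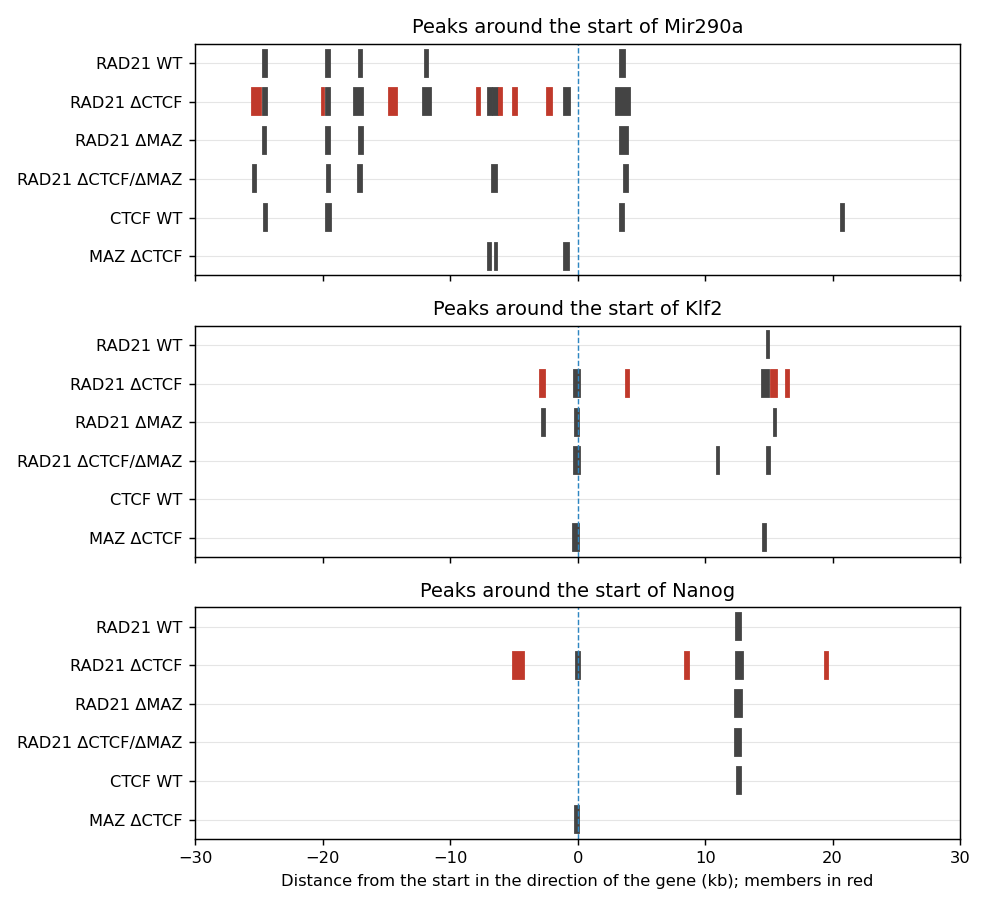
Peaks of 6 lists (rows) within 30 kb of the starts of Mir290a, Klf2 and Nanog, drawn by distance from the start in the direction of the gene (horizontal axis, kb), with members in red and other peaks in grey. Within this window 7 members lie upstream of Mir290a, 4 around Klf2 and 3 around Nanog, all in the row of RAD21 in ΔCTCF.

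Taking the nearest protein-coding gene of each member, 1927 of 21924 genes (8.79%) had at least 1, 633 had 2 or more and 65 had 5 or more. Most members, 12 each, were nearest to Tmem17, a gene of the ciliary transition zone, and Tbl1xr1, which like Tbl1x encodes an NCoR corepressor subunit. At Tmem17 they lay 29.6 to 120.5 kb from the start at fold enrichments of 3.01 to 8.34, with 0 called in ΔCTCF/ΔMAZ and 2 in ΔMAZ. At Tbl1xr1 they were strewn over a gene desert, 71.0 to 1313 kb from the start, at 3.57 to 5.96, with 1 called in each. Hs6st1, which encodes a heparan sulfate sulfotransferase, had 11 (3.15 to 5.62). Sall1, a zinc finger transcription factor gene, had 10 (3.15 to 6.98), and Plpp3, a lipid phosphatase gene, had 10 (2.58 to 7.62). Irf2bpl also had 10 and ranked next only by the order of ties. Of the 55 members at the other 5 genes, 2 were called in ΔCTCF/ΔMAZ and 10 in ΔMAZ, beside 8.71% and 10.1% of all members and 29.5% and 47.4% of all RAD21 peaks of ΔCTCF. These counts were not set against the length of intergenic DNA around each gene.

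Genes of the pluripotency network often had members beside them, as they had peaks of other RAD21 classes. Of 40 pluripotency regulators, 24 (interval of the share 44.6% to 73.7%) were the nearest protein-coding gene of a member, against 8.79% of all protein-coding genes, and with RAD21 lists of equal length 12 were. Retained and lost peaks between genes were also nearest to many of them, to 18 (45.0%) and 23 (57.5%) of the 40, where those classes reached 13.1% and 17.2% of all genes. MAZ-unbound relocalized peaks inside genes were nearest to 19 (47.5%) of the 40 and to 9.04% of all genes. With the start within 50 kb of the summit, 19 of the 40 (47.5%) had a member, against 5.72% of all genes. In that range lost peaks between genes reached 18 of the 40 (12.7% of all genes) and retained ones 15 (10.0%). MAZ-unbound peaks inside genes reached 15 (6.81%). Of 40 early lineage regulators, 11 (27.5%, 16.1 to 42.8) had a member and 5 within 50 kb, of 22 genes of cohesin and loop anchoring 1 did (4.55%), and of 39 Hox genes 0 did. Lists of this size say little about single classes of peak, and regulators of development often lie in wide gaps between genes. The gene lists were chosen with earlier results of these data known, so these counts are a description only.

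**Figure D4:**
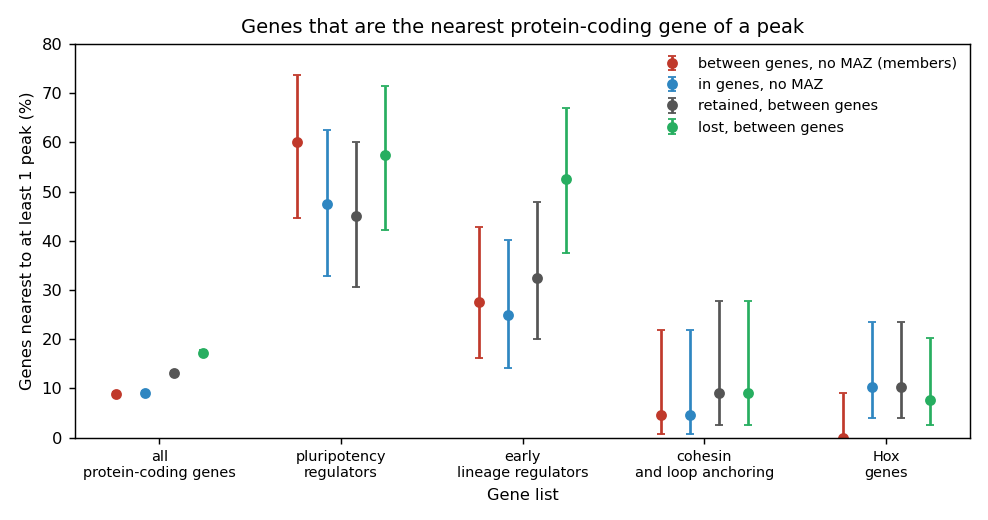
Share of the genes of each list (horizontal axis) that are the nearest protein-coding gene of at least 1 peak (vertical axis, percent), for 4 classes of RAD21 peak. Points are shares and bars are Wilson 95% intervals. Members of the full lists were nearest to 24 of 40 pluripotency regulators (12 with RAD21 lists of equal length), 27.5% of early lineage regulators and 0 Hox genes, and lost peaks between genes to 57.5% of pluripotency and 52.5% of early lineage regulators.

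Within 50 kb of pluripotency regulators there were 30 members, with a median fold enrichment of 4.31, of which 1 was called in ΔCTCF/ΔMAZ, 5 in ΔMAZ and 0 at a CTCF peak of WT, beside 8.71%, 10.1% and 2.99% of all members. At any distance, 6 of the 52 members nearest to these genes (11.5%, 5.40 to 23.0) were called in ΔCTCF/ΔMAZ. Closest was a member 1.30 kb upstream of Tfcp2l1 (4.72), a transcription factor of naive mESCs, with a second 2.16 kb upstream (3.69). A member 1.67 kb upstream of Dppa3 stood at 4.56, and 1 at 1.89 kb upstream of Nodal, a TGF-beta ligand gene, at 4.56. Downstream of the start of Utf1, a chromatin protein gene of mESCs, a member lay at 2.06 kb (5.33). None of these 5 was called in another RAD21 list.

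Klf2, a Krüppel-like factor gene of the naive network, had 4 members, 2.83 kb upstream and 3.95, 15.4 and 16.5 kb downstream of its start, at 4.38, 3.80, 7.10 and 4.43. Those at 2.83 and 15.4 kb were called in ΔMAZ (5.13 and 3.17) and 0 in ΔCTCF/ΔMAZ. The member at 15.4 kb lay 0.1 kb from a RAD21 peak of WT (5.65), which was retained in ΔCTCF (5.003) at a MAZ peak, so its separate call rests on a small gap. Klf2 had no CTCF peak of any list within 30 kb, and MAZ and a relocalized RAD21 peak (6.46) overlapped its start.

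Nanog, a homeobox gene of the core network, had members 4.46 kb upstream (6.06) and 8.58 kb downstream (2.60) of its start. Neither was called in another list. Another member within 30 kb of this start, at 3.76, was nearest to another gene. The only RAD21 peak of WT in that window lay at the CTCF peak of WT, with RAD21 at 26.9 (WT), 8.44 (ΔCTCF), 28.1 (ΔMAZ) and 8.09 (ΔCTCF/ΔMAZ).

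Dppa5a, which encodes an RNA-binding protein of mESCs, had the only member within 50 kb of this list that was called in ΔCTCF/ΔMAZ. It lay 3.27 kb downstream of the start (chr9:78364758-78365101) at 5.72 (ΔCTCF), 3.73 (ΔMAZ) and 6.41 (ΔCTCF/ΔMAZ). Members within 50 kb of Id3, Gbx2, Prdm14, Fgf4, Otx2, Mycn, Zfp42, Foxd3, Fbxo15, Myc and Lifr, genes of the network's transcription factors, signals and receptors and of an F-box protein (Fbxo15), ranged from 2.74 to 5.54. Those of Mycn (13.3 kb) and Lifr (47.5 kb) were called in ΔMAZ. Farther out, and chosen after their values were seen, Tbx3 had 6 members 50.1 to 531.1 kb away with 2 called in ΔCTCF/ΔMAZ, and Sox2 had 3 at 115.0 to 483.3 kb with 0 called.

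Early lineage genes with a member within 50 kb were Meis1 (1.42 kb from the start, 3.57), Tfap2c (2.43 and 17.7 kb, 3.46 and 5.29), Tfap2a (11.2 and 14.2 kb, 5.96 and 3.59), Tead4 (14.2 kb, 4.29) and Sox17 (47.0 kb, 3.59), all genes of transcription factors. The Tfap2c member at 2.43 kb overlapped a CTCF peak of WT (8.66) and a RAD21 peak of ΔMAZ (7.21), and 0 of the 7 were called in ΔCTCF/ΔMAZ. The cohesin list had a single member, 2.93 kb upstream of Smc3, a core cohesin subunit gene, at 3.71.

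Letters recognised by factors of the pluripotency network were more frequent at member summits than beside them. In windows of 50 bp on each side of the summit, the KLF letters (GGGTGTGG) occurred at 3.02% (2.47 to 3.69) of members, against 0.845% (0.645 to 1.11) of windows 500 to 600 bp away on both sides. The octamer of OCT4 (ATGCAAAT) occurred at 1.76% and 0.618%, the SOX letters (ACAATGG) at 4.096% and 1.61%, the ESRRB letters (TCAAGGTCA) at 0.943% and 0.309%, and the STAT letters (TTCCNGGAA) at 0.715% and 0.260%. TEAD letters (GGAATG) were at 10.4% (9.37 to 11.5) of summits and 5.87% of flanks, and the paired sites of TFCP2L1 at 7.67% and 3.69%. With RAD21 lists of equal length, KLF was at 1.47% of member summits and TEAD at 6.79%. No string held another, and both strands were searched. Among all RAD21 peaks of ΔCTCF the summit shares were 1.93% for KLF, 0.921% for the octamer, 1.99% for SOX, 0.491% for ESRRB, 0.569% for STAT, 7.05% for TEAD and 12.2% for TFCP2L1.

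At retained peaks between genes, TFCP2L1 was likewise more frequent at summits (10.3%) than in flanks (4.43%). For the other letters named above, the intervals of summits and flanks overlapped. TEAD was at 5.98% and 4.97%, SOX at 1.48% and 1.16%, and STAT at 0.569% and 0.362%, while KLF was at 0.725% and 0.970%, the octamer at 0.466% and 0.427%, and ESRRB at 0.207% and 0.388%. Retained peaks held the CTCF core at 24.6% of summits. Members held that core at 0.260% (0.132 to 0.512), or 8 of 3076, against 10.3% of all RAD21 peaks of ΔCTCF. MAZ-unbound peaks inside genes were like members, with KLF at 3.83%, the octamer at 1.68%, SOX at 3.25% and TEAD at 10.02%. The MAZ core (GGGAGGG) was at 4.84% (4.14 to 5.66) of member summits and 3.71% of flanks, and at 18.1% of the MAZ-bound peaks between genes, where all RAD21 peaks of ΔCTCF had 5.83%.

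**Figure D5:**
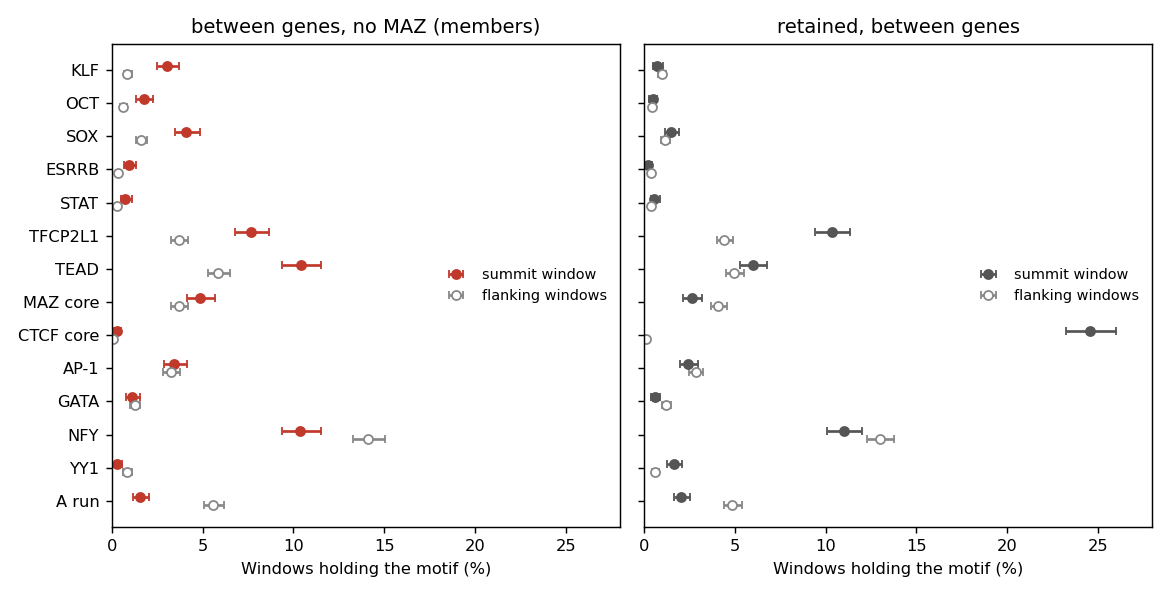
Share of windows that hold each of 14 motifs (horizontal axis, percent) at summits (filled) and 500 to 600 bp away (open), for members (left) and retained peaks between genes (right), with Wilson 95% bars. KLF, OCT, SOX and TEAD letters are more frequent at member summits than in their flanks, and the CTCF core at 24.6% stands out among retained peaks only.

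The remaining letters were rarer at member summits or showed small differences. CCAAT boxes (NFY) were at 10.4% against 14.1% of flanks, AP-1 letters (TGANTCA) at 3.45% against 3.25%, GATA letters (AGATAAG) at 1.11% against 1.25%, YY1 letters (AAGATGGC) at 0.293% against 0.829%, and runs of A (AAAAAAAA) at 1.56% against 5.59%. E-boxes (CACGTG) were at 1.72% against 1.43%, and the NRF1 site was at 2 member summits and 0 flank windows. Of all RAD21 peaks of ΔCTCF, 10.7% held a CCAAT box, 2.55% AP-1, 0.715% GATA, 0.932% YY1, 1.65% a run of A, 2.15% an E-box and 0.173% the NRF1 site. The GC content was 49.1% ± 7.19 (SD over members) at summits and 44.0% in flanks, and its part in these shares was not tested. The 23 members of 179 with OCT or SOX letters that were called in ΔCTCF/ΔMAZ made 12.8% (8.72 to 18.5), against 8.58% (7.602 to 9.68) of members with neither these nor KLF letters, and 4 of 93 with KLF letters made 4.301% (1.69 to 10.5). Within strength groups these odds ratios were 1.38 (0.85 to 2.23) and 0.52 (0.19 to 1.42), and neither difference was shown at these numbers. A match of letters describes the window and is not a binding site, and the motifs were chosen with earlier results of these data known.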

How the data were processed

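ChIP-seq peak lists of E14 mESCs were used, 12 lists of 20 samples, and the other 8 samples were not analysed here. Groups came from the sample titles. The authors aligned reads with Bowtie 2 against mm10, filtered them on quality and for duplicates with SAMtools, and called narrow peaks in each library with MACS, and whether an input entered is not given in the sources used here. Fold enrichment, as deposited, is the ratio of summit pileup to local background, the deposited −log10 p and −log10 q describe that peak, and the deposited score restates the −log10 q and was not used. The deposited summit offset placed each summit. Pileup and background were solved from fold enrichment and −log10 p (whole numbers within 0.001 for all RAD21 peaks). Depths are relative only, since the lists hold no read totals.

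Overlap meant 1 bp or more. Genes were those of GENCODE vM21 basic and sequence that of GRCm38, checked to contain every peak. Python 3.11.15 with numpy 2.4.6, scipy 1.17.1, pandas 2.3.3, pysam 0.24.0 and matplotlib 3.10.9 was used, and the functions were tested on simulated data. Named were the 10 strongest members, the 5 strongest called in ΔCTCF/ΔMAZ, the 5 largest clusters, the 5 protein-coding genes nearest to most members, and list genes with a member within 50 kb, of which 1 is not reported here by name. The members, gene lists and motifs were chosen with earlier results of these data known. The alternatives are given in the closing section.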

Additional observations from a re-analysis of the deposited data

How the results depend on the processing

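With 1 list per group no replicate could be left out. No paired analysis was possible because a single list stood for every antibody and condition. Of 192 values recomputed under alternatives for 18 results, 147 stayed within the interval of the value reported (for counts, within 1.5 times), 45 moved and 0 reversed. This count includes alternatives that could change little, since the knockout MAZ lists overlapped 0 members and 28 members lay near chromosome ends. With RAD21 lists of equal length, 5 of 18 values stayed.

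With a reciprocal overlap of 50%, the median fold enrichment was 4.43, the share called in ΔCTCF/ΔMAZ 5.41% and in ΔMAZ 7.66%, the odds ratio against retained peaks 0.16, the share at MAZ peaks of WT 1.31%, within 10 kb of a lost site 24.1% and of another member 30.1%, and the CTCF core 0.564%. With gaps of up to 500 bp counted as overlap, 13.1% lay within 10 kb of a lost site. With a −log10 q of at least 5 there were 1912 members at a median of 5.003, 6.33% were called in ΔCTCF/ΔMAZ (odds ratio against retained peaks 0.19), 4.08% lay at CTCF peaks of WT and 22.6% within 10 kb of another member.

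RAD21 lists of equal length, cut to the 6400 strongest peaks each, drop weak peaks of WT and so let in regions that the full WT list held. They moved 13 values and gave 1222 members at a median of 6.67, 40.5% called in ΔCTCF/ΔMAZ (odds ratio against retained peaks 0.60), 17.1% in ΔMAZ, 48.5% at CTCF peaks of WT, 4.01% near a lost site, 12.4% near another member, KLF at 1.47%, the octamer at 1.31%, TEAD at 6.79%, the CTCF core at 13.3%, and 12 pluripotency regulators.

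Over 2.5 kb from every start, the median distance to a start was 17.3 kb, and with protein-coding genes alone it was 45.0 kb, with 29.7% near another member. Thinned to the depth of ΔCTCF/ΔMAZ, 11.5% of members were called there, and 15.8% at the stricter limit. Within 5 kb lay 22.3% of members to another and 8.62% to a lost site, and within 25 kb 37.1% and 30.8%. In windows of 100 bp on each side, KLF was at 5.95%, the octamer at 3.61%, SOX at 7.67%, TEAD at 19.2%, the MAZ core at 9.56% and the CTCF core at 0.553%. As alternatives chosen after seeing the data, leaving out members at CTCF peaks gave 8.34% called in ΔMAZ, and the CTCF core was at 0.0%, and without chromosome ends nothing moved. The MAZ list of WT, strength groups by −log10 q, thinning to ΔMAZ and leaving out regions of the knockout MAZ lists also moved none of the values computed under them.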

Other observations

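Chromosome X held 51 members, 0.298 per Mb, where the autosomes held 0.729 (chromosome 14) to 1.61 (chromosome 11) per Mb. These densities were not corrected for the number of copies of each chromosome in the cells, which bears on the calling of weak peaks. The whole RAD21 list of ΔCTCF had 169 peaks on X, so that members made up 30.2% of it there, against 12.8% to 23.3% on the autosomes. Between genes, X had 72 retained and 165 lost RAD21 peaks.

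The summit of 732 members, 23.8% (22.3 to 25.3), lay in sequence that the reference marks as repeats, against 17.0% (15.6 to 18.4) of MAZ-unbound relocalized peaks inside genes, 13.5% (12.4 to 14.6) of retained and 21.5% (20.4 to 22.6) of lost peaks between genes. Members in repeats had a median fold enrichment of 4.53 and were called in ΔCTCF/ΔMAZ in 7.38% (5.70 to 9.50) of cases. No CpG was present in the summit windows of 36.6% of members, against 31.7% of MAZ-unbound relocalized peaks inside genes, 14.7% of retained and 27.5% of lost peaks between genes. Within 500 kb of a chromosome's first or last known base lay 28 members.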
